A study of Mus musculus with 1646 samples.

Results

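Secreted inhibitors of WNT signalling were followed through the mesenchymal cells of the mouse colon. Members were the genes of the secreted frizzled-related protein family (Sfrp1, Sfrp2, Sfrp4, Sfrp5 and Frzb), Wif1, and the Dickkopf genes Dkk1, Dkk2 and Dkk3, matched by Ensembl identifier, which makes 9 of the 46517 genes in the table. All 9 had at least 1 count among the single cells, which are described below.

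WNT proteins signal through Frizzled receptors and the co-receptors LRP5 and LRP6, and in the colon they keep the stem cells at the crypt base dividing. SFRP proteins and WIF1 bind WNT proteins outside the cell and keep them from their receptors, whereas the Dickkopf proteins DKK1 and DKK2 bind the co-receptors. DKK3 is a divergent relative whose part in WNT signalling is less settled. Fibroblasts lie around the crypt from base to apex, and pericytes and vascular smooth muscle cells (SMC) wrap the vessels. Interstitial SMC lie in the mucosa away from vessels, per the study, and are grouped with the mural cells here only as a contractile class.

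Single cells were sorted from the colons of 4 reporter lines and sequenced with SmartSeq2, a method that reads along the whole transcript. The lines, as labelled, were Acta2GFP (34.4% of the cells, on 2 plates), Cspg4dsRED (5.53%, on 1 plate), PdgfraGFP (13.8%, on 2 plates) and PdgfrbGFP (46.2%, or 761 cells, on 4 plates). Each line marks its cells with a fluorescent protein driven by the gene it is named for. Per the study's methods cells were enriched by such reporters, by combinations of them or by antibodies to PDGFRA or PDGFRB, so the line in a label need not be what a cell was sorted on. Mice were untreated males of 10 to 20 weeks on a C57Bl6/J background, per the study's methods, and some carried more than 1 reporter. Every line went through a gate against CD31, an endothelial marker, and Acta2GFP tissue alone also received elastase. The labels name no mouse, so lines stand as the replicates here and p-values measure the spread between lines.

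Each cell carries a cluster number from 1 to 8 in its label, and the names of the clusters come from the study. The fibroblast clusters were named, from the bottom of the crypt upwards, crypt base (cluster 7, 13.5% of cells), base to middle (cluster 5, 25.8%), middle (cluster 1, 29.3%), middle to apex (cluster 6, 2.73%, or 45 cells) and apex (cluster 2, 7.96%). The mural clusters were pericytes (cluster 4, 8.63%), vascular SMC (cluster 3, 8.57%) and interstitial SMC (cluster 8, 3.40%, or 56 cells). The clusters were drawn from the same counts, so a test between clusters describes these classes and is not independent of how they were made. A level below is the mean over cells of counts per 500000 gene counts, taken in each line with at least 10 cells in the cluster, and then given as the mean ± SD over lines. Median depth ran from 118252 counts per cell in cluster 8 to 359677 in cluster 3. The summed level of 5 fibroblast markers by line was 3236 to 10062 in fibroblast clusters and 120.9 to 1942 in mural clusters. That of 5 mural markers was 1.06 to 351.1 in fibroblast clusters and 1866 to 6224 in mural clusters. In cluster 8 the mural marker Notch3 had a mean of 0.213 over cells, below its 0.263 to 3.20 in fibroblast clusters, while Tagln stood at 1360.

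**Figure D1:**
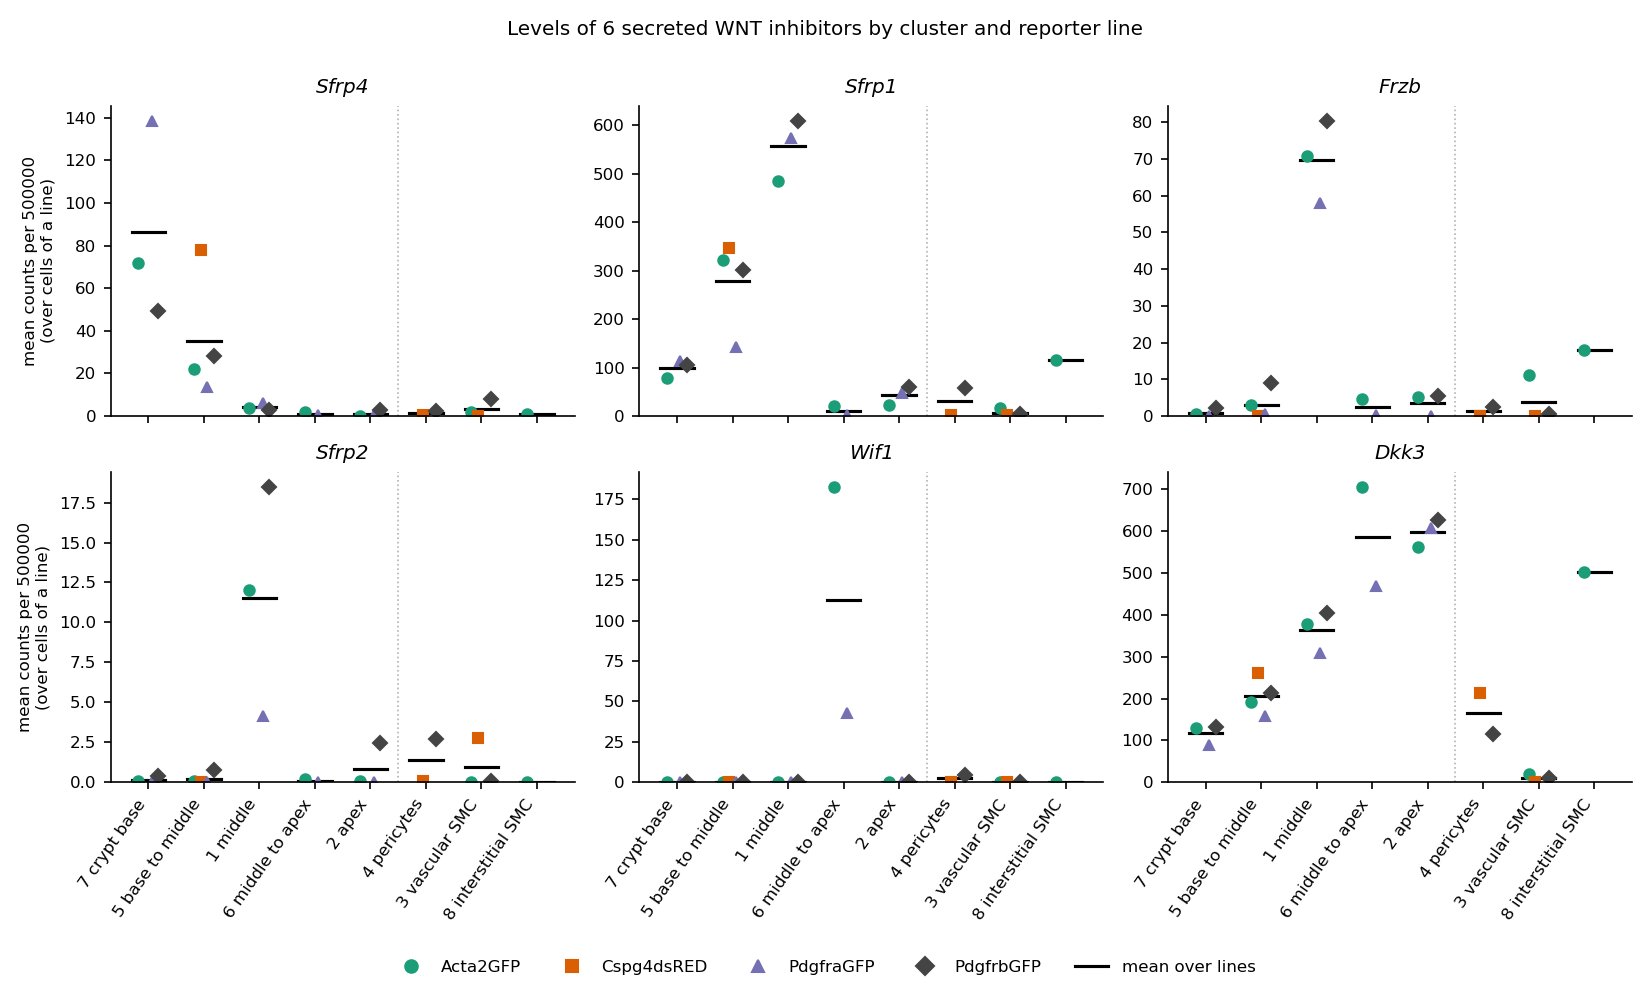
Level of 6 members (mean counts per 500000 over the cells of a line, linear axes that differ between genes) in the 8 clusters, with a point for each reporter line with at least 10 cells and a bar for the mean over lines. Sfrp4 is highest in cluster 7, Sfrp1, Frzb and Sfrp2 in cluster 1 and Wif1 in cluster 6, while Dkk3 is highest in clusters 6 and 2.

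Sfrp1 (ENSMUSG00000031548, chr8:23411502-23449632, plus strand), which encodes a soluble decoy for WNT proteins, was the most widely detected SFRP gene and was highest in the middle of the crypt. In cluster 1 its level was 485.5 in Acta2GFP, 574 in PdgfraGFP and 610 in PdgfrbGFP cells (556 ± 63.9, SD, n = 3 lines). In cluster 5 the lines stood at 321.2, 346.5, 142.8 and 300.9 in Acta2GFP, Cspg4dsRED, PdgfraGFP and PdgfrbGFP (277.8 ± 91.95, n = 4). In cluster 7 they stood at 79.4, 112.96 and 105.03 in Acta2GFP, PdgfraGFP and PdgfrbGFP (99.1 ± 17.6, n = 3). The line ranges of these clusters did not overlap. Toward the apex the level was lower again, at 19.8 (Acta2GFP) and 2.41 (PdgfraGFP) in cluster 6, and at 22.2, 47.97 and 60.1 in cluster 2 (43.4 ± 19.4, n = 3). A count of Sfrp1 was found in 99.2% of cluster 1 cells and in 71.8% of cluster 2 cells, and at least 10 counts in 93.8% and 33.6%.

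Sfrp4 (ENSMUSG00000021319, chr13:19623104-19632994, plus strand), another decoy of the family, had the opposite order along the lower crypt. Its level in cluster 7 was 71.8 in Acta2GFP, 138.8 in PdgfraGFP and 49.4 in PdgfrbGFP cells (86.6 ± 46.5, n = 3). In cluster 5 it was 21.996, 77.9, 13.6 and 28.006 in Acta2GFP, Cspg4dsRED, PdgfraGFP and PdgfrbGFP cells (35.4 ± 28.9, n = 4), a range that overlapped that of cluster 7. In cluster 1 it was 3.56, 6.05 and 2.96 (4.19 ± 1.64, n = 3), below every line of clusters 7 and 5. Cluster 7 held 51.7% of all Sfrp4 counts, and 33.2% of its cells had at least 10 counts, against 8.71% in cluster 5 and 0.828% in cluster 1. Sfrp1 was held by 96.3% of the cluster 7 cells with Sfrp4 and by 88.5% of those without it (93.3% of all), and the levels of the pair across the cells of the cluster had a Spearman rho of −0.11, a description over cells that share plates and depth.

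Frzb (ENSMUSG00000027004, chr2:80411970-80447625, minus strand), also called SFRP3, was concentrated in the middle of the crypt. In cluster 1 its level was 70.7 in Acta2GFP, 58.1 in PdgfraGFP and 80.5 in PdgfrbGFP cells (69.7 ± 11.2, n = 3). The highest line elsewhere was Acta2GFP in cluster 8, at 17.9, followed by Acta2GFP in cluster 3, at 11.1. Of those 29 cluster 3 cells only 1 had at least 10 counts, and its level was 277.8. Cluster 1 held 87.3% of Frzb counts. Among its cells 57.8% had a count and 28.2% had at least 10 counts, so Frzb was low or absent in part of the cluster. The share with a count differed by line, at 49.4% in Acta2GFP, 27.7% in PdgfraGFP and 74.2% in PdgfrbGFP. At 10 counts or more the shares were 30.5%, 20% and 29.7%. Low counts of Frzb also followed plates, as given below.

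Sfrp2 (ENSMUSG00000027996, chr3:83766321-83774316, plus strand) was the rarest SFRP gene with an appreciable level, and it had the same top cluster as Frzb. Its level in cluster 1 was 12.04, 4.12 and 18.5 in Acta2GFP, PdgfraGFP and PdgfrbGFP cells (11.6 ± 7.20, n = 3), and cluster 1 held 87.4% of its counts. The cells themselves overlapped in part: 57.8% of cluster 1 cells had Frzb, 20.5% had Sfrp2 and 13.7% had both, at 1 count or more; at 10 counts or more Sfrp2 was in 7.04%. Pooled over lines, Sfrp2 was found in 23.7% of cells with Frzb and in 16.2% of cells without it. Within PdgfrbGFP and within Acta2GFP the shares lay closer, at 30.3% and 29.5% and at 15.1% and 12.5%. In PdgfraGFP the order was the other way, at 0 of 18 cells with Frzb and 8.51% of those without it. Low counts of Sfrp2 (1 to 9) were also seen in 37.2% of the cells outside cluster 1 on PdgfrbGFP plate 075s and in 15% on plate 073s, against at most 6.02% on the rest. The antisense gene Gm26771 overlaps exons of Sfrp2 and held 831 counts in cluster 1, and since no strand is stated for the counting, reads from the overlap cannot be told apart. Sfrp5 (ENSMUSG00000018822, chr19:42197971-42202252, minus strand) had 31 counts in 17 cells, 26 of them on the Cspg4dsRED plate, which is too few to place it.

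The RefSeq promoters (GRCm38.p6) of the members with sharply placed counts are shown with matches to short motifs in capitals. The searched letters, on both strands, were CTTTGA and CTTTGT (cores of TCF/LEF sites, which share their first 5 letters), TATAAA (the TATA box) and GGGCGG (the GC box), and these were found in 16.003%, 18.7%, 13.6% and 35.7% of 32851 promoters of 300 bases. Frzb and Sfrp2 share their top cluster, and Wif1 is described below.
Frzb, chr2:80447474-80447503, minus strand: tcccctgaaaacTCAAAGccttctcggaag
Sfrp2, chr3:83766071-83766320, plus strand: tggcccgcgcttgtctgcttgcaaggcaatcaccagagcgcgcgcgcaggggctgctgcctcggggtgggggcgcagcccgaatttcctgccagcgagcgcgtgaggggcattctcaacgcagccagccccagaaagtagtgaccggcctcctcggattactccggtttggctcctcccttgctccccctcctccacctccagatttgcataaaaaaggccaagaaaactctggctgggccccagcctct
Wif1, chr10:121033754-121033959, plus strand: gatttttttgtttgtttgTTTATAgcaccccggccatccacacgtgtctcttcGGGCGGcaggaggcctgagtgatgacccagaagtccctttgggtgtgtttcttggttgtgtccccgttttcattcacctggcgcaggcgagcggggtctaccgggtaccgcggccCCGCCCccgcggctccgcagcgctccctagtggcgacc
The Frzb stretch holds CTTTGA on the opposite strand, 95 bases before its RefSeq start. In GENCODE, the annotation used for the gene names, this stretch lies inside an exon of Frzb, and the part of the window not printed holds GGGCGG at −51. The Wif1 stretch holds a TATAAA match and GC boxes, and the Sfrp2 stretch holds none of the motifs. A match describes letters in the window and is not a binding site.

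**Figure D2:**
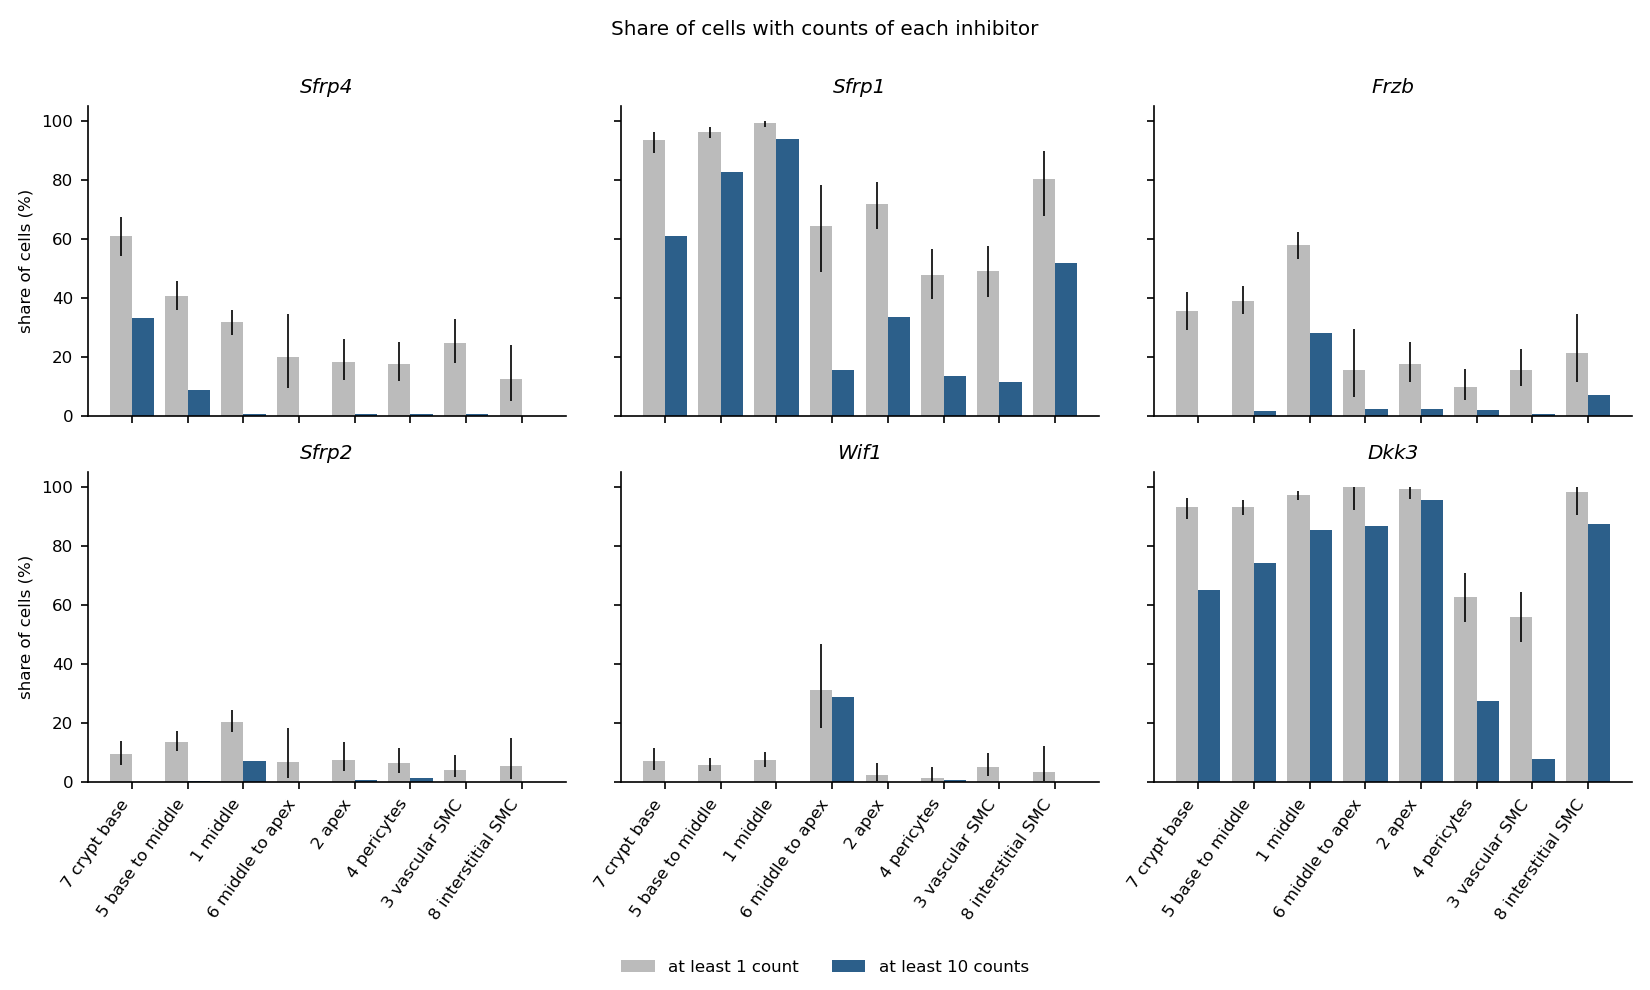
Percentage of cells of each cluster with at least 1 count (grey, with 95% exact binomial intervals, which cover counting error only) and with at least 10 counts (blue) of 6 members. For Frzb in cluster 1 the shares are 57.8% and 28.2%, and for Wif1 in cluster 6 they are 31.1% and 28.9%.

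Wif1 (ENSMUSG00000020218, chr10:121033960-121100650, plus strand), which encodes a WNT-binding protein with a domain of its own kind, was nearly restricted by counts to cluster 6, between the middle and the apex. That cluster held 92.7% of its counts. The level was 182.8 in Acta2GFP (10 cells) and 42.9 in PdgfraGFP (26 cells), or 112.8 ± 98.97 (SD, n = 2 lines). The highest line in another cluster was PdgfrbGFP in cluster 4, at 4.49, and that value came from 1 cell. The signal came from few cells: 14 of the 45 had a count and 13 had at least 10 counts. Dkk3 was held by all 45 cells of the cluster, with or without Wif1. Cells with Wif1 were found on every plate that gave cells to cluster 6, with plate levels from 41.5 to 435.05.

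Dkk3 (ENSMUSG00000030772, chr7:112116017-112159057, minus strand) was broad, with a higher mean level in each successive cluster from the crypt base to the middle and beyond. In cluster 7 its level was 128.9, 89.2 and 131.05 in Acta2GFP, PdgfraGFP and PdgfrbGFP cells (116.4 ± 23.6, n = 3). It was 205.6 ± 42.6 (n = 4) in cluster 5 and 364.1 ± 49.6 (n = 3) in cluster 1. In cluster 2 it was 562, 608 and 627 (599 ± 33.3, n = 3), and in cluster 6 it was 707 and 467.96 (587 ± 168.8, n = 2). Clusters 6 and 2 overlapped, and all lines of both stood above every line of clusters 7, 5 and 1. Among mural cells the level was 503 in interstitial SMC, 212.5 (Cspg4dsRED) and 116.1 (PdgfrbGFP) in pericytes, and 19.5, 1.11 and 9.38 in vascular SMC (10.0 ± 9.23, n = 3).

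Dkk1 (ENSMUSG00000024868, chr19:30545863-30549665, minus strand), the classical LRP5/6 antagonist, gave 58 counts in 57 cells, 56 of them single counts, spread over all clusters. Dkk2 (ENSMUSG00000028031, chr3:132085292-132180304, plus strand), which binds the same co-receptors, gave 907 counts in 98 cells, and 5 cells with at least 10 counts held 86.2% of them. Its level of 39.6 in the Acta2GFP cells of cluster 6 came from 1 cell, which held 28.9% of all Dkk2 counts. A count of Dkk2 was found in 9 of 45 cluster 6 cells (20%), of which 1 had at least 10 counts, and in 1.79% to 6.38% of the cells of the other clusters. Dkk1 was found in at most 3.76% of the cells of any cluster.

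**Figure D3:**
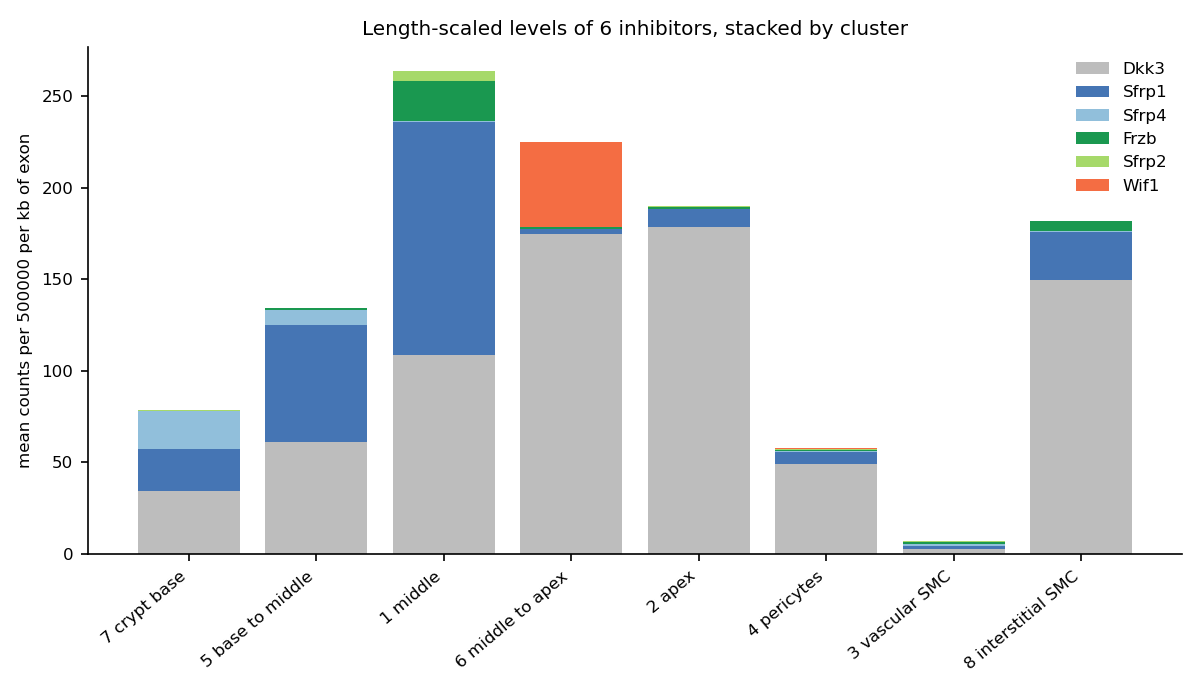
Levels of 6 members per kilobase of exon (mean counts per 500000 per kb), stacked by cluster. Dkk3, Sfrp1 and Sfrp4 divide the bar of cluster 7, Dkk3 and Sfrp1 make up most of those of clusters 5 and 1, Wif1 appears in cluster 6, and vascular SMC have the lowest bar.

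Per kilobase of exon, the mixture of inhibitors changed along the crypt. In cluster 7 Dkk3 made up 44.1% of the summed level, Sfrp1 28.9% and Sfrp4 26.4%. In cluster 1 Sfrp1 made up 48.2%, Dkk3 41.1% and Frzb 8.16%. In cluster 6 Dkk3 made up 75.9% and Wif1 20.2%, and in cluster 2 Dkk3 alone made up 93.8%. Summed over the members, the level per kilobase was 78.5 at the crypt base, 263.9 in the middle, 190.1 at the apex and 7.47 among vascular SMC. After every cell was thinned to 50000 counts, a cluster 1 cell held 2.54 members on average and a vascular SMC 0.686, and 57.1% of vascular SMC held none.

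The first comparison asked whether fibroblasts as a class differ from mural cells in these genes. Counts were summed per line and tested with edgeR, with Benjamini-Hochberg adjustment over all genes. Sfrp1 stood at 283.3, 255.8, 225.8 and 385.3 in the fibroblasts of Acta2GFP, Cspg4dsRED, PdgfraGFP and PdgfrbGFP, and at 76.9, 1.80 and 35.03 in the mural cells of Acta2GFP, Cspg4dsRED and PdgfrbGFP. The groups did not overlap, but the log2 difference of 2.96 (SE 0.91) had an adjusted p of 0.0889. For Sfrp4 the log2 difference was 4.12 (SE 1.08, adjusted p = 0.0532), and for Dkk3 it was 1.09 (SE 0.43, adjusted p = 0.179). The groups of Dkk3 overlapped, since Acta2GFP mural cells stood at 318.2 and the fibroblasts of the lines at 277.4 to 343.1. Most of those mural cells were interstitial SMC (52 of 84, Dkk3 level 503), which hardly any other line supplied, while the 29 vascular SMC of Acta2GFP stood at 19.5. None of 8 members tested passed at 0.05, against 6.57% of 19173 genes (1259). At an unadjusted p under 0.05 there were 3 members (20.2% of all genes), and DESeq2 called 2 (15.5% of all genes). With the line as a block, which the correlation of deviations within all 3 shared lines allowed, 590 genes and again no member passed, with Sfrp1 at 4.02 (adjusted p = 0.140), Sfrp4 at 5.11 (adjusted p = 0.147) and Dkk3 at 1.27 (adjusted p = 0.223). The median log2 difference of the members was 1.44, against −0.03 over all genes. The calls lay near the threshold. Dkk3 passed without Acta2GFP (1.99, adjusted p = 0.0246), Sfrp1 without Cspg4dsRED (2.37, adjusted p = 0.0478) and Sfrp4 without PdgfrbGFP (6.40, adjusted p = 0.0465). With all lines kept, Sfrp4 passed with no filter, thinned cells, re-assigned cells, plates in place of lines and DESeq2 (adjusted p from 1.23e-05 to 0.0424), and Sfrp1 passed with plates, limma on cell means and DESeq2 (adjusted p from 0.00160 to 0.0129), and Dkk3 passed with limma on cell means (3.02, adjusted p = 0.0450).

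The second comparison set the apex against the mean of the lower clusters 1, 5 and 7. Here 3 of 7 members tested passed, against 7.51% of 18924 genes (1421). Dkk3 was higher at the apex by 1.62 on the log2 scale (SE 0.25, adjusted p = 0.000443). Sfrp1 fell by 2.10 (SE 0.50, adjusted p = 0.0149) and Sfrp4 fell by 4.78 (SE 1.03, adjusted p = 0.00701). In each line with both, Acta2GFP, PdgfraGFP and PdgfrbGFP, all of these directions held. The median over the members was −1.35, against 0.02 over all genes. Without PdgfrbGFP Sfrp1 gave −2.52 (adjusted p = 0.0806), and without Acta2GFP Sfrp4 gave −4.39 (adjusted p = 0.0825). The size of the Sfrp4 difference also moved with PdgfrbGFP, and was −7.38 without that line (adjusted p = 0.00563) and −7.24 without plates 073s and 075s and the larger Acta2GFP plate. With cells re-assigned to the nearest cluster by expression, Sfrp4 gave −1.38 (adjusted p = 0.645), and in that setting 1 cell labelled vascular SMC, with 700 Sfrp4 counts, joined the apex. The summed level of 16 dissociation-response genes was 11920 to 18647 in the lines of cluster 2 and 1778 to 7402 in those of clusters 1, 5 and 7, and its part in these differences was not tested.

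**Figure D4:**
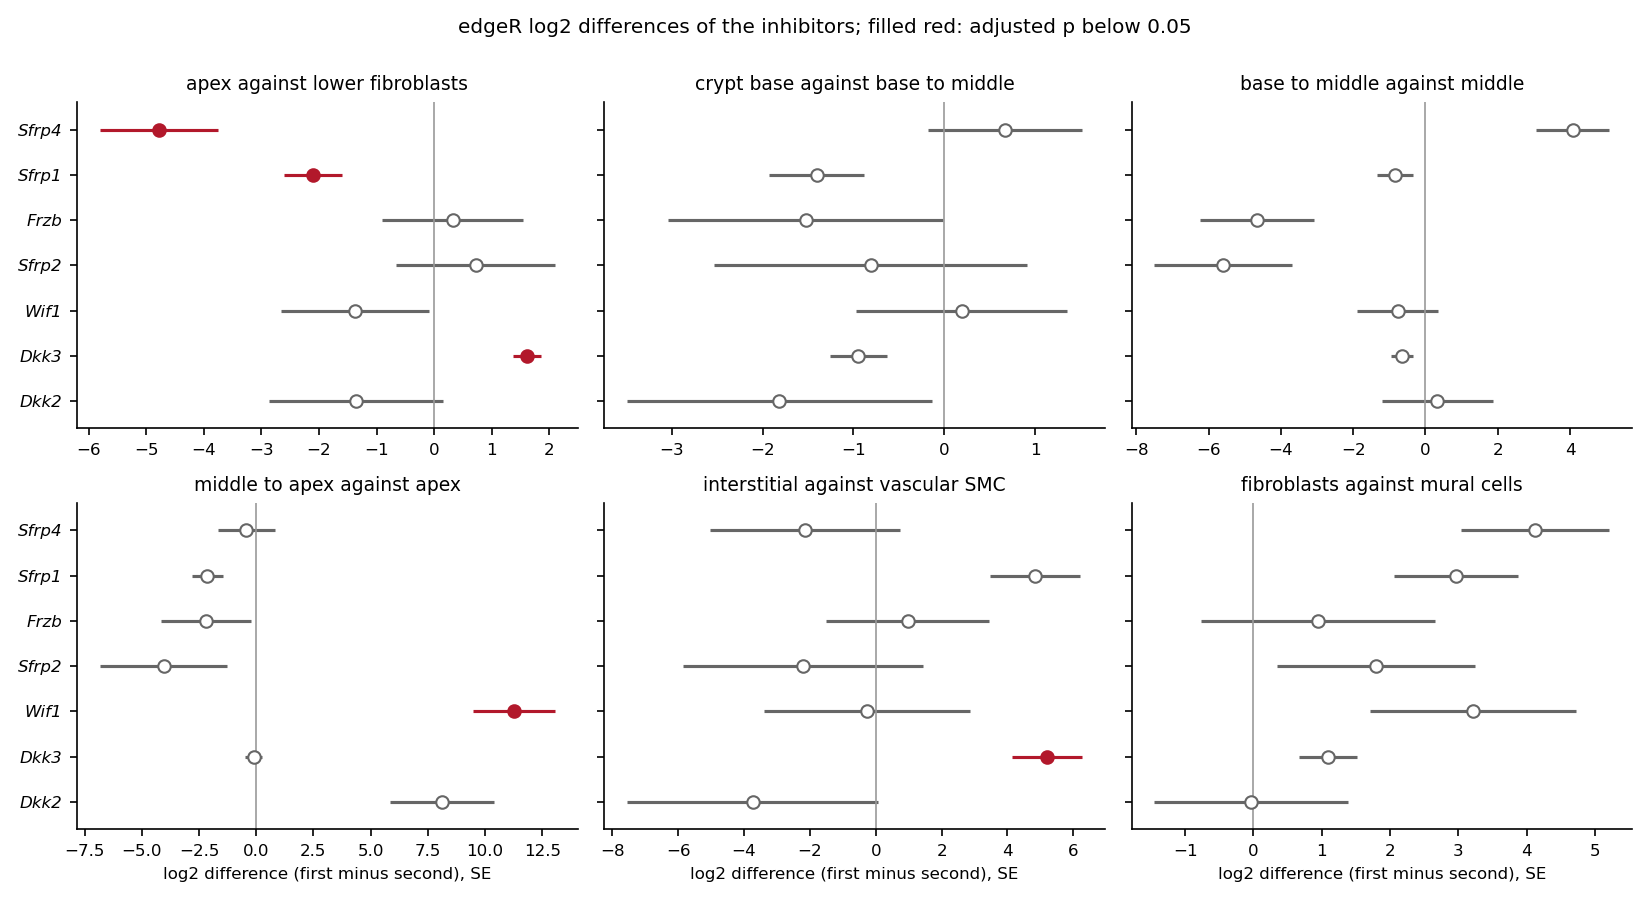
Log2 difference (first group minus second) of 7 members in 6 of the comparisons, with bars of 1 SE from edgeR and members with an adjusted p under 0.05 in filled red. At the apex Dkk3 lies above 0 and Sfrp1 and Sfrp4 below 0, and Wif1 stands at 11.26 in cluster 6 against cluster 2.

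Neighbouring clusters of the lower crypt were then compared. Between cluster 7 and cluster 5 none of 7 members passed, against 0.037% of genes (7), although 2 had an unadjusted p under 0.05 (6.28% of all genes). DESeq2 called none (1.22% of all genes). The log2 difference of Dkk3 was −0.95 (adjusted p = 0.650 in edgeR), that of Sfrp1 was −1.40 (adjusted p = 0.736) and that of Sfrp4 was 0.67. Between cluster 5 and cluster 1 none of 7 passed, against 0.412% of genes (78), with 4 at an unadjusted p under 0.05 (7.41% of all genes) and 2 called by DESeq2 (2.31% of all genes). Sfrp4 differed by 4.07 (edgeR adjusted p = 0.130), while Frzb gave −4.66 and Sfrp2 −5.60 (both adjusted p = 0.361). These large log2 differences were set against a wide spread, since Frzb in cluster 5 was 2.85, 0, 0.41 and 8.89 in the lines.

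Between cluster 6 and cluster 2, 1 of 7 members passed, Wif1, against 2.1% of genes. Its log2 difference was 11.26 (SE 1.78, adjusted p = 0.00369), set by 2281 counts in cluster 6 against 4 in cluster 2, where 2 of 3 lines had none, so the size depends on the prior count of the fit. Leaving out Acta2GFP, PdgfraGFP, or plates 073s and 075s of PdgfrbGFP and the larger plate of Acta2GFP each leaves 1 sum in cluster 6. That sum is assumed to vary like the other groups. Wif1 stayed past the threshold without PdgfraGFP but not without Acta2GFP (9.31) or without those plates (13.42). Dkk3 differed by −0.11, a value with no stable sign, and Sfrp1 by −2.14 (edgeR adjusted p = 0.110). Without Acta2GFP the Sfrp1 difference was −4.83, again with 1 sum in cluster 6. The 8.12 of Dkk2 (adjusted p = 0.0745) rests on the 1 cell named above.

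Within the mural cells, pericytes and vascular SMC were compared over 2 and 3 lines. None of 8 members passed, against 0.668% of 16328 genes, with 1 member at an unadjusted p under 0.05 (10.9% of all genes) and 1 called by DESeq2 (5.92% of all genes). Dkk3 was higher in pericytes by 3.50 on the log2 scale (SE 0.93), which missed the threshold (edgeR adjusted p = 0.158). With all lines kept, Dkk3 passed with DESeq2, no filter, plates, thinned cells and re-assigned cells. Dkk3 also passed without plates 073s and 075s and the larger Acta2GFP plate, but not with at least 3 cells per sum or limma on cell means. It passed without Cspg4dsRED (2.46, adjusted p = 0.000268) and without PdgfrbGFP (3.67, adjusted p = 1.99e-05), which each leave 1 pericyte sum and take the spread from the other sums, and with the line as a block (5.43, adjusted p = 0.0410). Without Acta2GFP, which keeps both pericyte sums, it was 4.86 (adjusted p = 0.108) and no member passed. Sfrp1 gave 2.55 (adjusted p = 0.460), with 1.98 in Cspg4dsRED and 58.4 in PdgfrbGFP pericytes. Its direction reversed with cell means (−0.18), with re-assigned cells (−1.12) and without PdgfrbGFP (−1.80), and without Cspg4dsRED, which leaves 1 pericyte sum, it passed (3.09, adjusted p = 0.00255). Most of that signal lay in a few cells: 21 pericytes (14.8%) lay nearer in expression to another cluster, 17 of them to a fibroblast one, and they held 5349 of 5533 Sfrp1 counts. Taken as a set, those 21 cells had counts of genes of both classes. In the mean over them Pdgfra, a fibroblast receptor gene, stood at 160.9 and Rgs5, a pericyte gene, at 1214. In the other pericytes these means were 2.16 and 3451. Whether single cells held both genes was not counted. Sfrp1 was at 385.3 and 3.22 in these sets, and Dkk3 at 292.9 and 107.1. The same cells held 99.3% of the Wif1 counts of the cluster.

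Interstitial SMC are represented by 1 sum, from Acta2GFP, so this comparison has no replicate in that arm. Its p-values take the spread from the other sums of the mural fit, of vascular SMC and pericytes, and say nothing of how interstitial SMC vary. In edgeR the value of 1 of 8 members, Dkk3, was past the threshold on that basis, against 1.04% of genes (170). Its log2 difference was 5.20 (SE 1.07, edgeR adjusted p = 0.0415). With the line as a block it was 4.04 (adjusted p = 0.392) and no longer past the threshold. Sfrp1 stood at 114.8 in interstitial and at 16.4, 1.60 and 3.42 in vascular SMC, a log2 difference of 4.84 (SE 1.36, adjusted p = 0.172). It passed with DESeq2, no filter, plates, and without Cspg4dsRED or PdgfrbGFP (adjusted p from 7.79e-07 to 0.0338), and DESeq2 called 2 of 8 members (5.89% of all genes).

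**Figure D5:**
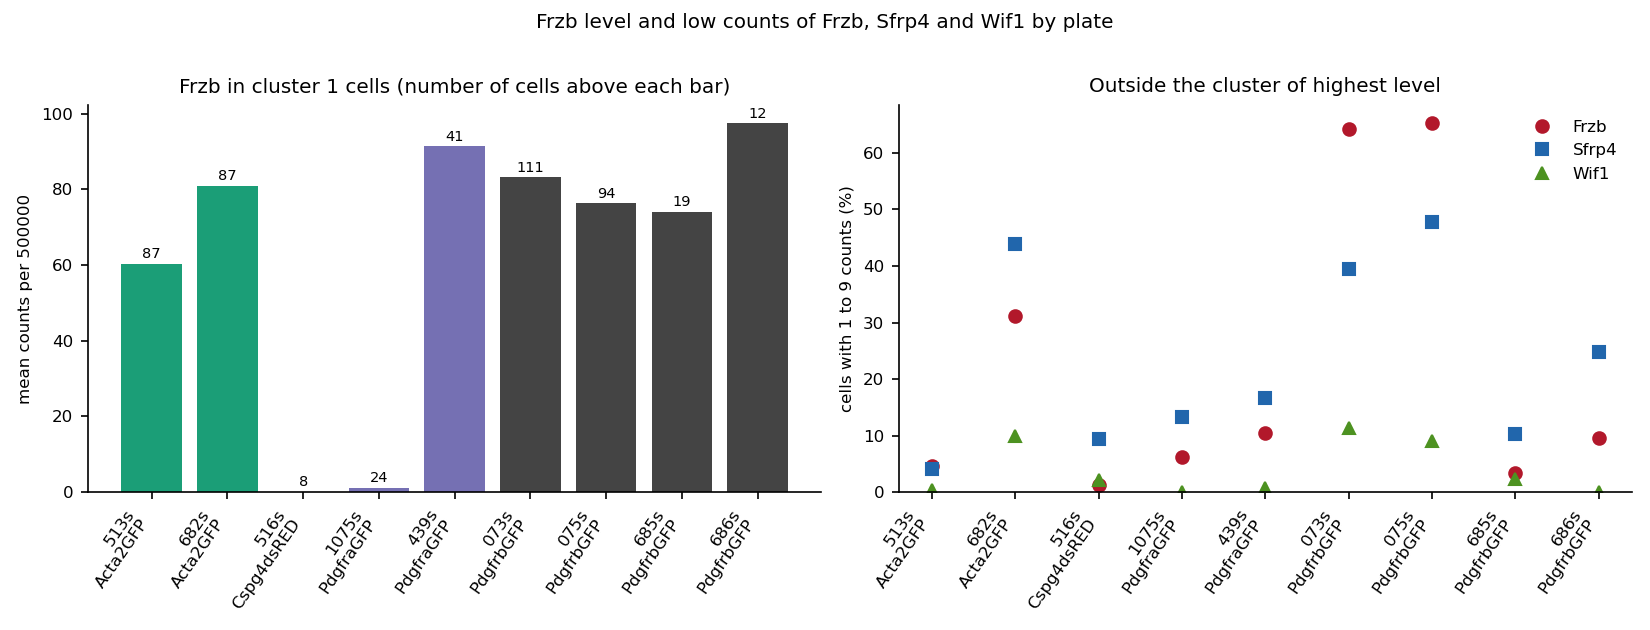
Left, level of Frzb in cluster 1 by plate (mean counts per 500000), coloured by line with the number of cells above each bar; right, percentage of cells outside a gene's top cluster with 1 to 9 counts of Frzb, Sfrp4 or Wif1, by plate. Frzb is 60.3 to 97.5 on 7 plates, 1.19 on the smaller PdgfraGFP plate and 0 in 8 Cspg4dsRED cells, and the low counts are most frequent on 2 PdgfrbGFP plates and 1 Acta2GFP plate.

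Lines were compared within cluster 1 over plates, and since plates of a line may share animals, p-values here measure only the spread between plates. Acta2GFP against PdgfrbGFP gave 0 calls of 7 members, against 0% of 15700 genes (edgeR; 2.77% had an unadjusted p under 0.05 and DESeq2 called 0.146%). PdgfraGFP against PdgfrbGFP likewise gave 0 of 7, against 0% (edgeR; 6.75% had an unadjusted p under 0.05 and DESeq2 called 2.64%). No member had an unadjusted p under 0.05 in either. For Frzb the log2 differences were −0.36 and −0.67, and the PdgfraGFP value joined plates at 1.19 and 91.4. Low counts of Frzb outside cluster 1 also followed plates: 1 to 9 counts were seen in 64.3%, 65.2% and 31.2% of the other cells on PdgfrbGFP plates 073s and 075s and the larger Acta2GFP plate, and in at most 10.5% on the rest. For Sfrp4 outside cluster 7 the shares were 39.5%, 47.8% and 43.8% on those plates, and 4.07% to 24.8% on the rest.

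Other genes of the pathway were placed by fixed lists, which share some genes and are to be read against the 7.51% of all genes called at the apex (906 rose and 515 fell) and the 6.57% called between fibroblasts and mural cells (615 rose and 644 fell). At the apex against the lower clusters, 2 of 10 WNT ligand genes tested rose and 2 fell. Wnt5a, a ligand of the non-canonical branch, rose by 4.95 on the log2 scale and Wnt4 by 3.60 against the mean of the lower clusters, and Wnt2b fell by 5.06 and Wnt2 fell by 5.28. Wnt4 was not above the middle of the crypt, with a level from summed counts of 17.04 at the apex and 22.5 in cluster 1, and it was near 0 (0.379) in cluster 5. Of 13 receptor genes 1 rose, Kremen1 (1.57), a partner of the Dickkopf proteins, and 3 fell, Fzd1 (−2.02), Lrp6 (−1.77) and Fzd4 (−2.32). Of 6 R-spondin and LGR genes Lgr5 (8.40) and Lgr4 (2.97) rose and Rspo3 fell by 5.40. Of 6 other inhibitors Kremen1 rose, and Trabd2b (−5.11) and Igfbp4 (−0.97) fell. Of 13 WNT target genes 6 rose, Lef1 (8.62), Lgr5, Sp5 (6.62), Tcf7 (5.13), Nkd1 (4.22) and Ccnd1 (1.66), and none fell.

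In the fibroblasts against mural cells, 4 of 10 ligand genes rose, namely Wnt2 (6.10), Wnt11 (6.81), Wnt9a (5.79) and Wnt5a (2.84). Of 15 receptor genes Fzd1 (2.95) and Kremen1 (2.25) rose, of 7 other inhibitors Tpbg (4.56), Kremen1 and Igfbp4 (2.27) rose, and of 12 targets Lef1 (6.76) rose and Nkd1 fell by 4.95. None of 7 R-spondin and LGR genes passed. In cluster 6 against cluster 2, where 2.1% of all genes were called and most of those fell, 1 of 13 receptor genes (Fzd4), 1 of 6 R-spondin and LGR genes (Lgr5), 1 of 6 other inhibitors (Igfbp4) and 3 of 13 targets (Lgr5, Lef1 and Myc) fell, with log2 differences from −7.97 (Lgr5) to −3.77 (Fzd4). Between clusters 5 and 1 Wnt4 fell by 5.70, and between pericytes and vascular SMC Nkd1 fell by 3.04. No gene of these lists passed between clusters 7 and 5, between interstitial and vascular SMC or between lines.

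Genes with the most similar pattern were ranked by Pearson's r of log2 levels over 21 sums of cluster and line, among 5648 genes with a mean level of at least 20. The nearest to Sfrp1 were Tmtc2 (0.93), C1qtnf3 (0.92) and Serpina3n (0.92), and to Sfrp4 they were Flrt2 (0.95), Flrt3 (0.94) and C7 (0.93). Edil3 was nearest to both Frzb (0.76) and Sfrp2 (0.86). Adam19 (0.94), Lamb1 (0.93) and Tmem119 (0.92) were nearest to Dkk3, and Bmp3 (0.83), Slc35a1 (0.79) and Surf2 (0.74) to Wif1. For Wif1, Sfrp5 (Imp3, 0.83) and Dkk2 (Adsl, 0.67) the likeness rests on few cells with counts. These are descriptions over sums that share lines and depth.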

How the data were processed

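The authors deposited a table of read counts per gene and cell. Per the study's methods, single 50-base reads were trimmed, aligned to the mouse genome (GRCm38, mm10) with TopHat2 and Bowtie, and counted with featureCounts. The strand setting is not given in the sources used here. Rows of 92 spike-ins (1.36% of counts) were left out. Counts per cell ran from 47598 to 1494290 (median 248628). Reads without molecular identifiers are not independent molecules.

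Identifiers were named with GENCODE mouse release 21 (46005 of 46517 matched), and RefSeq promoters matched 6 of 9 members. Counts were summed per reporter line and cluster (at least 10 cells) and tested with edgeR 4.0.16 (TMM, filterByExpr, quasi-likelihood test, Benjamini-Hochberg, 0.05). Fibroblast clusters shared 1 fit, mural clusters another. For fibroblasts against mural cells, sums of the same line deviated together (r 0.152 to 0.175 over 3 lines), so the fit with the line as a block is printed beside the reported one, which has no block. The fit was also run on simulated sums, drawn without correlation between sums of a line. That run cannot show how well the p-values hold in the real data, and its outcome is not given here. Alternatives were DESeq2 1.42.0, limma 3.58.1 on cell means, no filter, the line as a block, plates as samples, at least 3 cells per sum, thinned cells, cells re-assigned by expression and each line or plate left out. Leaving out plates 073s and 075s and the larger Acta2GFP plate was chosen after seeing the data. Members and lists were chosen with earlier results of these data known. Named genes are every member, up to 3 genes most like each member except Dkk1, and list genes that passed the test. The antisense gene Gm26771 and the markers Pdgfra, Rgs5, Notch3 and Tagln are named besides.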

Additional observations from a re-analysis of the deposited data

Results flagged for a closer look

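Plates or lines that stood apart from the others of their cluster were sought over 16 sets of plates or lines. Chance alone sets apart about 1 in 20 of such sets. Sfrp4 in cluster 7 was 175.8 on the larger PdgfraGFP plate, where 4 of 11 cells held it, against 44.1 to 79.3 on the other plates of 5. Frzb in cluster 1 was 1.19 on the smaller PdgfraGFP plate (24 cells), against 60.3 to 97.5 on the other plates of 8.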

How the results depend on the processing

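The number of members past the threshold stayed at 2 or 3 for the apex against the lower fibroblasts, and at 0 for cluster 7 against cluster 5, under every alternative run. In fibroblasts against mural cells it moved from 0 to 2 with DESeq2, with plates in place of lines and with cell means in limma, to 1 with no filter, thinned cells, re-assigned cells and without plates 073s and 075s and the larger Acta2GFP plate, and to 0 to 1 with a line left out. In cluster 5 against cluster 1 it moved from 0 to 2 with DESeq2, to 3 with plates, and to 1 with at least 3 cells per sum, with cell means and without the 3 plates. In cluster 6 against cluster 2 it moved from 1 to 2 with plates and with cell means, and to 0 without the 3 plates. In pericytes against vascular SMC it moved from 0 to 1 with DESeq2, no filter, the line as a block, plates, thinned cells, re-assigned cells and without the 3 plates, and to 0 to 2 with a line left out. In interstitial against vascular SMC it moved from 1 to 2 with DESeq2, no filter, plates and with either line left out, and to 0 with the line as a block. In PdgfraGFP against PdgfrbGFP it was 0 to 1 with a plate left out: without the larger PdgfraGFP plate Frzb gave −6.61, which compares 1 remaining plate and takes the spread from the others. The causes of these moves were not tested.

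Sfrp1 in pericytes against vascular SMC reversed to −0.18 with cell means and to −1.12 with re-assigned cells, and ranged from −1.80 to 3.77 with a line left out. Frzb between PdgfraGFP and PdgfrbGFP ranged from −6.61 to 0.30 with a plate left out. Members with a count in at least 30% of the cells of some cluster numbered 5, and 3 at 10 counts or more. Dkk3 in cluster 6 against cluster 2 was 0.0067 with DESeq2 and ranged from −0.47 to 0.14 with a line left out. Over the 23 log2 differences of members that passed under some setting or are named here, 82.3% of the values under alternatives kept their direction and side of the threshold, 13.6% passed it anew, 2.04% lost it and 2.04% reversed.

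Between lines, calls were most frequent with DESeq2. These were 23 genes for Acta2GFP against PdgfrbGFP and 2.64% of genes for PdgfraGFP against PdgfrbGFP. Numbers of called genes ranged from 590 (line as a block) to 2966 (DESeq2) for fibroblasts against mural cells. They were 973 to 2353 for the apex and 6 to 230 for cluster 7 against 5. They were 54 to 506 for cluster 5 against 1 and 45 to 2247 for cluster 6 against 2. They were 71 to 966 for pericytes and up to 962 for interstitial SMC. With a line left out they fell lower, to 1.5% of genes for fibroblasts against mural cells, and to 541, 0, 6, 25 and 44 genes for the apex, cluster 7 against 5, 5 against 1, 6 against 2 and pericytes, and rose to 722 for interstitial SMC. Shared lines correlated above 0.1 for apex against middle (0.11 to 0.144) and, over only 2 lines, for pericytes against vascular SMC (0.15 and 0.157), where the block brings Dkk3 past the threshold. In the other cluster comparisons not all did, and there the replicate block pairs samples by line name only, although with 3 shared lines every sum correlated best with its own line. The top cluster was the same for 7 of 9 members over plates and for 8 of 9 over summed counts. Counts of Dkk1 (58) and Sfrp5 (31) are too few to place these genes.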
